A study of Mus musculus with 32 samples.

Results

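Mouse embryonic stem cells that lacked Mettl3 were compared with cells of the same knockout that overexpressed a fusion of METTL3 with a domain named GRBD in the labels, both before retinal differentiation began. The comparison took in 4 of the 32 libraries of the study, chosen by their labels: the 2 day 0 libraries of the Mettl3 KO line (KO) and the 2 day 0 libraries of the line labelled WT MTL3-GRBD OE in Mettl3 KO, cultured without dexamethasone (Dex). All groups of the study derive from Rx:GFP stem cells, a line named for a green fluorescent reporter of Rax. The 4 lines or treatments were WT (Rx:GFP), KO, the fusion without Dex and the fusion with 10 µM Dex, and each was sampled at days 0, 2, 4 and 6 as polyadenylated RNA. All libraries of days 2, 4 and 6 came from organoids treated with AGN (0.1 µM), which the labels do not list at day 0. The treatment protocol gives Dex for 2, 4 and 6 days, so whether the day 0 libraries labelled as Dex treated had received Dex is unclear, and they are called the fusion with Dex by that label alone. Day 0 was labelled as embryonic stem cells. The KO and fusion libraries share the Mettl3 knockout genotype, and neither group received Dex. The series' design text places the fusion protein in the cytosol when Dex is absent. How many clones each line represents is not given in the sources used here. An effect of the fusion can therefore not be told apart from other differences between the lines or their cultures. Expression values were FPKM, the authors' fragment counts scaled to transcript length and library size. Of 55492 rows in the deposited table, 16276 genes were tested.

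METTL3 is the catalytic subunit of the nuclear enzyme complex that writes N6-methyladenosine (m6A) on messenger RNA as it is made, with METTL14 as its binding partner and WTAP, VIRMA and RBM15 among its regulatory subunits. Reader proteins of the YTHDF family bind the mark in the cytoplasm and shorten the life of the marked transcript. In mouse embryonic stem cells m6A is known to lie on many transcripts of pluripotency regulators and to take part in the exit from the naive state. Dex is a ligand of the glucocorticoid receptor, whose binding domain is widely used to hold a fused protein in the cytosol until the ligand is added.

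Low FPKM values lie on steps of whole fragments, which gave a depth of 33.8 to 37.45 M fragments in the 4 libraries, so that 3 fragments on a 2 kb transcript corresponded to 0.0471 to 0.0519 FPKM. Across the tested genes the log2 values of the KO duplicates had a Pearson correlation of 0.9937 and those of the fusion duplicates one of 0.9941. The labels do not say that the duplicates came from separate cultures. The p-values therefore measure only the spread between duplicate libraries, estimated over all 32 libraries of the study. That spread may be technical. Stem cell identity was checked on Nanog, a core pluripotency factor, at 188.03 and 193.23 FPKM in KO and 179.29 and 174.8 FPKM in the fusion line, and Pou5f1 and Sox2 were higher still. The summed FPKM of 18 extraembryonic endoderm markers was 179.43 and 176.79 in KO and 176.73 and 179.08 in the fusion line. The 12 neural progenitor markers summed to 41.6 and 41.75 in KO and to 39.13 and 35.64 in the fusion line. Of 12 mesendoderm markers, 6 did not pass the filter on low values, T and Mixl1 among them. The 6 that were tested summed to 170.97 and 160.94 FPKM in KO and to 184.88 and 187.62 FPKM in the fusion line. Of these, 3 were called higher and 1 lower. Feeder fibroblast markers other than Fn1, Acta2, Tagln and Thy1 were low, with Col3a1 at 0.06 and 0.19 FPKM in KO and 0.26 and 0.17 FPKM in the fusion line. In bulk RNA, fewer cells of a type and less RNA per cell cannot be told apart.

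Mettl3 itself was measured first. Its level was 43.83 and 42.88 FPKM in the libraries labelled KO and 68.52 and 71.78 FPKM in the fusion line, so that the groups did not overlap. The difference was 0.68 on the log2(FPKM + 1) scale used throughout (SE 0.06, limma, Benjamini-Hochberg adjusted p = 2.5e-08). WT stem cells held 36.8 and 33.15 FPKM and the fusion line with Dex 75.06 and 75.01 FPKM. The knockout therefore did not lower the gene-level FPKM of Mettl3 below WT, and these values do not check the KO label. The part of the locus that was altered is not given in the sources used here. The fluorescent reporters and Cre, which have rows of their own in the table, were at 0 or below 1 FPKM in all day 0 libraries.

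Transcripts of the other m6A machinery were mostly lower with the fusion as deposited, and fewer were lower after length correction. Among the 8 subunits of the writer complex, Mettl3 rose, 6 fell and Rbm15b was not called, against 19.3% of all tested genes called higher and 29.8% called lower. After the correction for transcript length described further on, 2 writer subunits were higher and 3 lower, and their median log2 change went from -0.285 to -0.073. Rbm15, an RNA-binding subunit, went from 11.91 and 10.5 FPKM to 6.22 and 6.2 FPKM (log2 change -0.76, SE 0.05, adjusted p = 1.32e-10). Wtap, the scaffold subunit, went from 125.61 and 121.84 FPKM to 89.03 and 89.96 FPKM (log2 change -0.46). Both groups were apart for each of these genes, as for 69.8% of all tested genes. Mettl14 was 23.01 and 21.96 FPKM in KO and 18.11 and 17.5 FPKM in the fusion line, a log2 change of -0.32 that shrank to -0.06 after the length correction. Of 11 readers and erasers, 10 fell and 1 was not called, with a median log2 change of -0.51 against a median of -0.03 over all tested genes. The length correction reduced that median to -0.25, with 8 members lower and 1 higher. Ythdf2, the best known reader in transcript decay, was 29.47 and 29.3 FPKM in KO and 17.57 and 17.79 FPKM in the fusion line (log2 change -0.70, SE 0.04). Alkbh5, a demethylase, was 11.93 and 11.78 FPKM against 7.71 and 8.12 FPKM (log2 change -0.53), again without overlap.

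The glucocorticoid receptor gene and its usual targets gave a mixed picture in the absence of Dex. Nr3c1, which encodes the receptor, was 2.0 and 2.27 FPKM in KO and 1.55 and 1.62 FPKM in the fusion line (log2 change -0.28, SE 0.09, adjusted p = 0.0207), and its length-corrected change was -0.03. The call was lost without KO replicate 2 (-0.21), fusion replicate 1 (-0.26) or fusion replicate 2 (-0.30). It was also lost after median-of-ratios rescaling (-0.21), after length correction and in the fit on the compared groups alone. Of 12 genes of the glucocorticoid list, 2 rose and 4 fell, near the shares over all tested genes (19.3% higher and 29.8% lower). Fkbp5, a co-chaperone of the receptor and a common target, went from 48.81 and 48.04 FPKM down to 32.4 and 32.69 FPKM (log2 change -0.56, SE 0.03). Sgk1, a kinase gene of the same list, fell by 0.44 on the log2 scale (SE 0.11), while the clock gene Per1 rose by 0.18 and Ddit4, an inhibitor of mTOR signalling, by 0.41. Per1 was not called without KO replicate 2 (0.12) or fusion replicate 2 (0.17), nor in the fits on the compared groups or the day 0 groups alone. The list's median was -0.07 as deposited, 0.00 after median-of-ratios rescaling and 0.05 after length correction, so its direction depended on the scaling.

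In total 7985 of the 16276 tested genes were called at an adjusted p under 0.05 (49.1%), of which 3142 were higher (19.3%) and 4843 lower (29.8%) with the fusion. Most differences were small: 221 genes (1.36%) were called with a log2 change of at least 1, of which 66 rose (0.406%) and 155 fell (0.952%). The libraries of the groups did not overlap for 69.8% of all tested genes, and 48.8% were both called and without overlap. These were 7950 of the 7985 called genes, so being apart adds little to a call. Rescaling each library by median-of-ratios factors turned the split from 39.3% of calls higher to 54.0%. After the length correction 57.6% of calls were higher.

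The direction of change followed transcript length. Among 13614 coding genes, Spearman's rho between the day 0 change and the length of the longest annotated transcript was -0.451, a correlation across genes, which are not independent replicates. Of 704 genes with transcripts under 1 kb, 53.3% were called higher and 3.1% lower, with a median change of 0.27. Of 1181 genes with transcripts of at least 7 kb, 5.7% were called higher and 54.8% lower, with a median change of -0.24. The order of the classes in between was monotonic.

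Transcripts under 1.5 kb made up 44.03% and 44.42% of the coding FPKM in KO and 48.9% and 48.68% in the fusion line. WT held 43.45% and 42.03%, and the fusion with Dex 46.18% and 46.31%. Transcripts of at least 5 kb went the other way, at 6.26% and 6.09% in KO and 5.05% and 5.02% in the fusion line. The fusion libraries without Dex therefore had the highest short-transcript share of all 32 libraries. The part of library preparation or RNA quality in this trend was not tested. A correction that subtracted each library's fitted trend on length brought rho to -0.075. It was incomplete for short transcripts: the corrected median was 0.177 under 1 kb and 0.089 at 1 to 1.5 kb. In the classes from 2 kb upward it was 0.032 to 0.043. Of the 7985 calls, 5823 (72.9%) were kept in the same direction after the correction, and 66 (0.8%) were called in the other direction. Of the 221 genes called with a change of at least 1, 217 (98.2%) were kept. Length-corrected counts or medians are therefore given beside most gene lists. After the correction 46.8% of tested genes were called, 27.0% higher and 19.8% lower. The corrected counts of each list are to be read against these shares, which not every paragraph repeats. The counts as deposited are to be read against 19.3% higher and 29.8% lower.

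**Figure D1:**
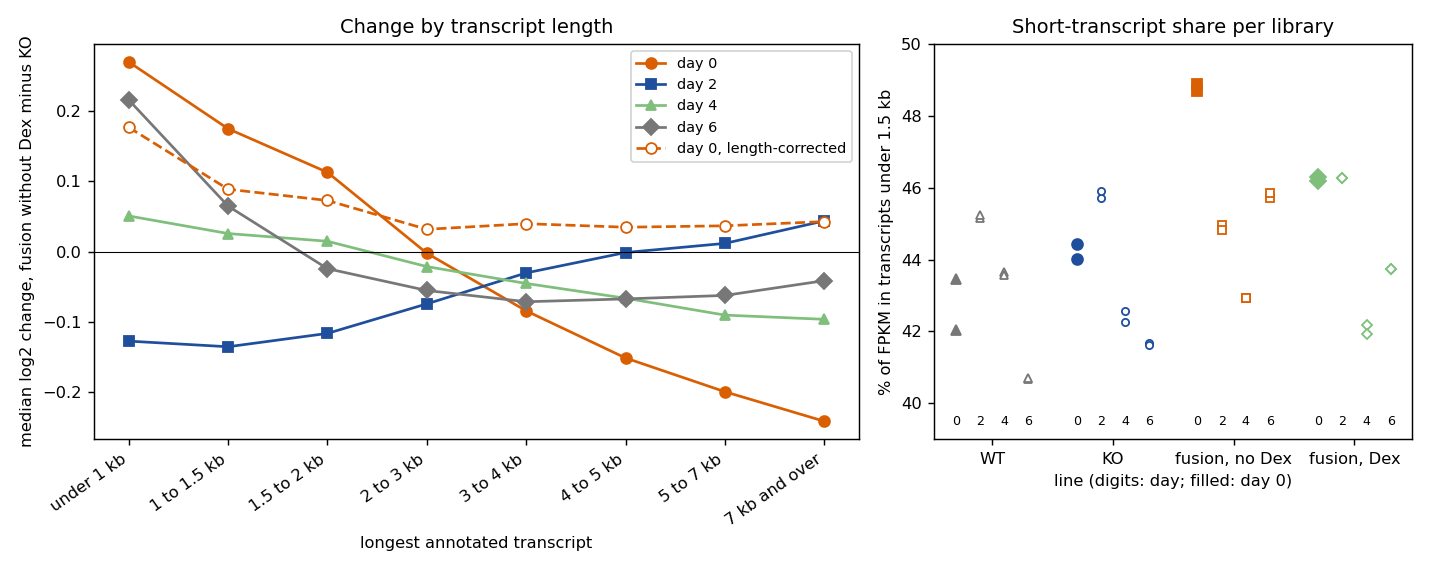
Left, median log2 change (fusion without Dex minus KO) of coding genes by class of longest annotated transcript, at each day and at day 0 after length correction. Right, percent of coding FPKM in transcripts under 1.5 kb, one symbol per library (the axis does not start at 0), filled at day 0. The day 0 median runs from 0.27 in the shortest class to -0.24 in the longest, and the fusion libraries without Dex at day 0 lie highest on the right.

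The genes that rose most with the fusion included genes of the immediate early response and metallothioneins. Immediate early genes are switched on within minutes of growth factor or stress signals by factors already in the cell. Egr1, a zinc finger transcription factor of this class, was at 2.56 and 2.4 FPKM in KO and at 24.69 and 24.38 FPKM in the fusion line (log2 change 2.88, SE 0.05, adjusted p = 7.71e-18). WT stem cells held 1.94 and 1.76 FPKM of Egr1 and the fusion line with Dex 26.74 and 28.07 FPKM. Both fusion groups, which are the same line by label, lay far above both groups without the fusion. Fos, a subunit of the AP-1 transcription factor, was 0.15 and 0.31 FPKM in KO and 2.71 and 2.73 FPKM in the fusion line (log2 change 1.60, SE 0.10). Ccn1, a secreted matricellular protein and target of serum response factor, went from 9.54 and 10.7 FPKM to 27.74 and 27.11 FPKM (log2 change 1.36, SE 0.07). For each of these genes the fusion libraries were all above the KO libraries, which the selection of the largest rises required.

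Of 15 immediate early genes, 14 were tested, and 10 rose, 1 fell and 3 were not called. Their median change was 0.47 as deposited and 0.41 after length correction. Jun rose from 1.37 and 1.53 FPKM to 3.21 and 3.24 FPKM, and Ccn2, a relative of Ccn1, from 3.95 and 4.05 FPKM to 8.32 and 8.48 FPKM. Ier2 started high, at 235.01 and 230.69 FPKM, and rose to 309.46 and 320.66 FPKM. The exception was Myc, a growth regulator, which fell from 40.21 and 36.87 FPKM to 26.56 and 27.37 FPKM (log2 change -0.50, SE 0.06). Gadd45g, a stress sensor outside that list, was 9.79 and 8.76 FPKM in KO and 35.89 and 39.76 FPKM in the fusion line (log2 change 1.92, SE 0.07). WT had 11.75 and 12.41 FPKM of Gadd45g, near the KO level, and the fusion with Dex had 45.25 and 45.32 FPKM.

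**Figure D2:**
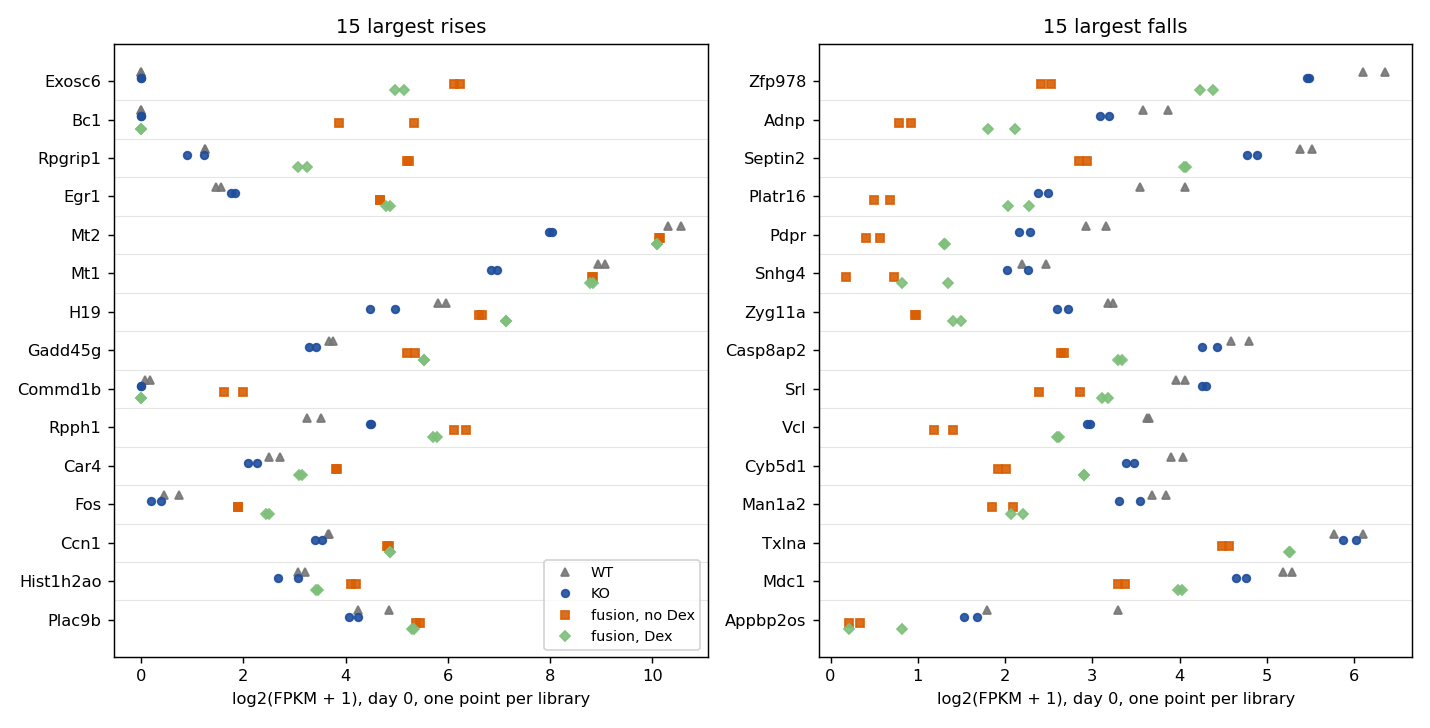
Levels at day 0 as log2(FPKM + 1), one symbol per library, for 15 named genes that rose and 15 that fell most in the fusion line without Dex against KO. Squares (fusion without Dex) and circles (KO) do not overlap for any of the 30 genes, which the selection required.

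Metallothioneins are small cysteine-rich proteins that bind zinc and copper, and their genes are induced by metals through the factor MTF1, which binds metal response elements near the start site. The start regions of Mt1 and Mt2 are shown because these neighbouring genes on chromosome 8 moved together. The sequences are the RefSeq windows from 250 bases before to 50 bases after each gene's start (GRCm38.p6, plus strand, chr8:94178839-94179138 for Mt1 and chr8:94172368-94172667 for Mt2), with matches of the core TGCGCNC or TGCACNC on either strand in capitals.
Mt1: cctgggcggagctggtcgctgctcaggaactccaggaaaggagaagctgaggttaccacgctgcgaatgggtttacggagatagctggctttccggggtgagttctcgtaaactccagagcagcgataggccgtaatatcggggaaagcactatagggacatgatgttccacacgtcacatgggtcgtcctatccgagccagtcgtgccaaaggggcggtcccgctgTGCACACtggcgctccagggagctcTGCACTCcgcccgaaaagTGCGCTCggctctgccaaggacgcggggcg
Mt2: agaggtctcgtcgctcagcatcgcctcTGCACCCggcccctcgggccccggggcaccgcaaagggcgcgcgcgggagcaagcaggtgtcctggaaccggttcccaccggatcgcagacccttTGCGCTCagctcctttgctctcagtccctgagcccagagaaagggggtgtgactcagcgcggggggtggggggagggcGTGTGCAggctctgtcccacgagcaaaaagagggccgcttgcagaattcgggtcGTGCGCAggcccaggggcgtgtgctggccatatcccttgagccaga
The Mt1 window held 3 matches and the Mt2 window 4. Of 32851 promoter windows of the same length, 25.7% held at least 1 match, 1.97% at least 3 and 0.52% at least 4. A match is only a run of letters and no measured binding site.

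Mt2 stood at 250.21 and 260.29 FPKM in KO and at 1128.7 and 1123.71 FPKM in the fusion line (log2 change 2.14, SE 0.06, adjusted p = 1.31e-15). Mt1 stood at 114.2 and 123.79 FPKM in KO and at 458.0 and 448.93 FPKM in the fusion line (log2 change 1.92, SE 0.04, adjusted p = 1.72e-17). The groups were apart for both genes, which the selection of the largest rises required. Mt2 overlaps the predicted antisense gene Gm45774. WT held 1500.29 and 1263.63 FPKM of Mt2 and 541.02 and 489.66 FPKM of Mt1. The fusion with Dex held 1096.79 and 1089.33 FPKM of Mt2 and 456.92 and 441.47 FPKM of Mt1. The KO libraries were thus the low group of the 4 at day 0, a different order from Egr1.

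Other leading rises covered an imprinted RNA, a carbonic anhydrase and small RNAs. H19, an imprinted noncoding RNA, was 30.12 and 21.23 FPKM in KO and 100.64 and 96.77 FPKM in the fusion line (log2 change 1.92, SE 0.09). Car4, a membrane-bound carbonic anhydrase, went from 3.81 and 3.28 FPKM to 13.16 and 13.11 FPKM (log2 change 1.64, SE 0.07). Plac9b, which overlaps Cphx3, rose from 17.86 and 15.83 FPKM to 43.04 and 40.53 FPKM, and the histone gene Hist1h2ao from 7.36 and 5.38 FPKM to 17.5 and 16.27 FPKM. Histone messages of that type normally lack a poly(A) tail, as does Rpph1, the RNA of ribonuclease P, which went from 21.21 and 21.53 FPKM to 68.57 and 80.37 FPKM. Hist1h2ao belongs to a family of near-identical copies, so reads may have been split among them.

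Several of the largest rises came from genes that share sequence with a neighbour and are uncertain. Exosc6, a subunit of the RNA exosome, was listed at 0 in both KO and both WT libraries and at 69.04 and 74.01 FPKM in the fusion line (adjusted p = 5.35e-22). Its gene lies within Aars on the same strand, and Aars, an alanyl-tRNA synthetase gene looked up for that reason, went from 170.45 and 166.17 FPKM to 130.62 and 131.39 FPKM. Rpgrip1, a cilium gene of photoreceptors, was 1.34 and 0.87 FPKM in KO and 36.61 and 36.03 FPKM in the fusion line. It overlaps Supt16, a histone chaperone gene on the opposite strand, which fell from 82.88 and 83.64 FPKM to 36.18 and 36.56 FPKM (log2 change -1.17, SE 0.02). Whether the counting used strand is not given in the sources used here, so reads of the pair cannot be told apart. Bc1, a neuronal noncoding RNA listed at 0 in KO and at 13.64 and 39.44 FPKM in the fusion line, is annotated at 168 bases, shorter than the sequenced fragments. Commd1b, which overlaps Commd1, was listed at 0 in KO and at 2.98 and 2.07 FPKM in the fusion line. Among predicted genes the largest rises were Gm12744, Gm42457 and Gm37401, each annotated antisense to a coding gene. Gm37401 was not called without KO replicate 2 (log2 change 2.96).

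The genes with the largest falls had varied roles. Zfp978, a KRAB zinc finger gene of a family with near-identical copies, fell from 43.83 and 43.04 FPKM to 4.76 and 4.32 FPKM (log2 change -3.00, SE 0.09, adjusted p = 2.17e-14). Casp8ap2, a regulator of histone gene expression and of caspase-8, fell from 20.54 and 18.11 FPKM to 5.41 and 5.23 FPKM (log2 change -1.68, SE 0.16). Vcl, which encodes the focal adhesion protein vinculin, fell from 6.87 and 6.68 FPKM to 1.64 and 1.28 FPKM (log2 change -1.66, SE 0.06). Mdc1, a mediator of the DNA damage checkpoint, fell from 23.94 and 26.05 FPKM to 8.79 and 9.38 FPKM, and Txlna, a syntaxin binding protein gene, from 64.07 and 57.61 FPKM to 21.43 and 22.59 FPKM. Length correction left these changes at -3.09 for Zfp978, -1.43 for Casp8ap2, -1.44 for Vcl, -1.10 for Mdc1 and -1.22 for Txlna. Man1a2, a Golgi mannosidase gene, Zyg11a, Srl, Cyb5d1 and Pdpr also fell, with log2 changes between -1.46 and -1.74. Of these genes, Zfp978, Vcl, Man1a2, Srl, Cyb5d1 and Pdpr overlap another annotated gene, whose reads may be mixed with theirs. For Zfp978, Casp8ap2, Vcl and Mdc1 WT lay above KO, and the fusion with Dex lay between KO and the fusion without it. Casp8ap2 was at 26.7 and 23.07 FPKM in WT and 9.1 and 8.8 FPKM with Dex.

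A further 5 of the 15 largest falls are uncertain because of an overlapping gene. Adnp, a chromatin regulator, fell from 8.15 and 7.49 FPKM to 0.72 and 0.9 FPKM (log2 change -2.29, SE 0.11) and overlaps the predicted gene Gm20716 on the same strand. Septin2 has overlapping rows under that symbol, of which one fell from 28.61 and 26.29 FPKM to 6.18 and 6.68 FPKM, while the other was 50.22 and 54.83 FPKM in KO and 54.76 and 54.35 FPKM in the fusion line and was not called. Platr16 overlaps Gm13230, the leading Snhg4 row overlaps Matr3, and Appbp2os is antisense to Appbp2. Among symbols outside the naming rule the largest falls were Rn7s2, Gm28036 and Gm21748. Appbp2os (log2 change -1.25 to -1.41) and Rn7s2 (-6.09 to -7.07) were not called when any of the 4 libraries was left out.

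Naive pluripotency genes fell more often than they rose. Of 18 members, 10 fell, 4 rose and 4 were not called, with a median change of -0.21 as deposited and -0.15 after length correction, which left 7 lower and 4 higher. Tet2 fell from 13.35 and 13.76 FPKM to 7.9 and 7.62 FPKM (log2 change -0.73, SE 0.10). Prdm14, a repressor that guards the naive state, fell from 8.37 and 7.95 FPKM to 4.35 and 4.77 FPKM (log2 change -0.72, SE 0.09). Nr5a2, an orphan nuclear receptor, fell from 13.57 and 13.79 FPKM to 8.18 and 7.98 FPKM (log2 change -0.69, SE 0.09). Esrrb, another nuclear receptor of the naive network, was 155.01 and 160.13 FPKM in KO and 114.6 and 117.35 FPKM in the fusion line (log2 change -0.44, SE 0.04). Zfp42 (Rex1) was 584.3 and 590.99 FPKM against 443.17 and 436.75 FPKM (log2 change -0.42, SE 0.05). The groups were apart for all of these genes, as for 69.8% of all tested genes.

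Dppa3 (Stella), Sox15, Klf2 and Gbx2 were the 4 naive genes that rose. Sox15 was not called without KO replicate 1 (log2 change 0.45) or fusion replicate 2 (0.39), and Gbx2 was not called when any of the 4 libraries was left out (0.19 to 0.23). Dppa3 went from 16.46 and 18.23 FPKM to 25.08 and 26.26 FPKM (log2 change 0.54, SE 0.11), while WT held 5.41 and 5.89 FPKM. Klf4 was 56.02 and 57.06 FPKM in KO and 56.86 and 56.28 FPKM in the fusion line, with overlap between the groups. Among 10 core pluripotency genes, Pou5f1 and Utf1 rose, 4 fell and 4 were not called, near the shares over all tested genes (19.3% higher and 29.8% lower). After length correction 3 were higher and 3 lower, beside 27.0% and 19.8% of all tested genes. The list's median of -0.09 turned to 0.01 after median-of-ratios rescaling. Pou5f1 (Oct4) was 947.38 and 950.65 FPKM in KO and 1049.35 and 1078.71 FPKM in the fusion line (log2 change 0.16, SE 0.05, adjusted p = 0.0126), and its length-corrected change was 0.08. It was not called without KO replicate 1 (0.16) or fusion replicate 2 (0.14). Sox2 fell from 257.58 and 233.37 FPKM to 205.53 and 200.48 FPKM (log2 change -0.27, SE 0.04).

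Formative genes, which mark the step after the naive state, were divided. Of 15, 5 rose, 5 fell and 5 were not called, beside 19.3% higher and 29.8% lower over all tested genes. The median of -0.06 turned to 0.04 after median-of-ratios rescaling and to 0.12 after length correction. Pou3f1 (Oct6) rose from 3.46 and 2.94 FPKM to 7.08 and 6.82 FPKM (log2 change 0.92, SE 0.06), and Lef1, a Wnt effector, from 1.24 and 1.22 FPKM to 3.01 and 2.59 FPKM. Zic2 fell in the same libraries from 18.93 and 17.83 FPKM to 9.98 and 9.41 FPKM (log2 change -0.86, SE 0.05). Fgf5, the classical marker of primed cells, was 0.23 and 0.22 FPKM in KO and 0.44 and 0.41 FPKM in the fusion line and was not called. It was called higher in some other fits, among them those after length correction (0.26) and median-of-ratios rescaling (0.25).

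DNA methylation enzymes fell, with Dnmt3l as the exception. Of 9 genes, 8 fell and 1 rose, with a median change of -0.48. After length correction the median was -0.25, with 7 lower, and Tet3 joined Dnmt3l among those higher. Tet1, which oxidises 5-methylcytosine, fell from 37.3 and 39.63 FPKM to 15.94 and 17.06 FPKM (log2 change -1.17, SE 0.08, adjusted p = 3.3e-10; length-corrected -0.85). The de novo methyltransferase gene Dnmt3a fell from 76.37 and 75.13 FPKM to 48.69 and 50.89 FPKM (log2 change -0.60), and Dnmt3b from 32.41 and 31.08 FPKM to 21.82 and 22.66 FPKM (log2 change -0.49). Dnmt3l, their noncatalytic partner, went the other way, from 88.07 and 89.35 FPKM to 161.84 and 167.4 FPKM (log2 change 0.88, SE 0.06, adjusted p = 4.29e-10). WT held 222.11 and 221.48 FPKM of Dnmt3l and the fusion with Dex 218.79 and 220.19 FPKM, so that the fusion without Dex lay between KO and WT.

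**Figure D3:**
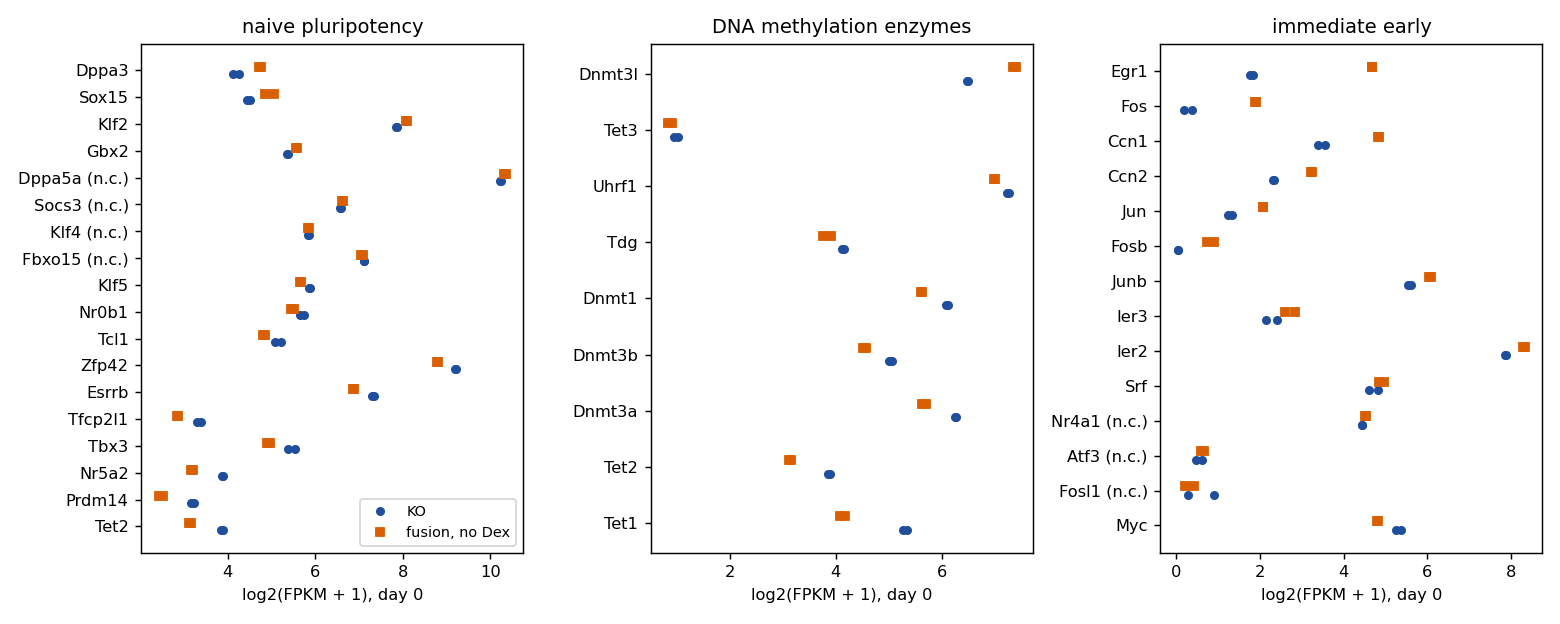
Day 0 levels as log2(FPKM + 1) of the tested members of 3 gene lists, ordered by change, with circles for KO and squares for the fusion without Dex (2 libraries each; n.c., not called). Most naive genes and DNA methylation enzymes lie to the left in the fusion line, and 10 of 14 immediate early genes lie to the right.

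Imprinted genes moved in both directions. Of 28 tested, 14 rose and 10 fell, with a median of 0.11 as deposited and 0.29 after length correction, which left 16 higher and 4 lower. Peg10, a retrotransposon-derived gene of the placenta, rose from 23.29 and 23.77 FPKM to 49.62 and 48.86 FPKM (log2 change 1.03, SE 0.03, adjusted p = 9.85e-16), and its neighbour Sgce from 1.7 and 1.9 FPKM to 4.29 and 4.29 FPKM. Meg3, a maternally expressed noncoding RNA, rose from 286.57 and 294.57 FPKM to 445.78 and 433.45 FPKM (log2 change 0.60, SE 0.02). Nnat rose from 9.47 and 7.88 FPKM to 17.38 and 17.68 FPKM, and the cell cycle inhibitor Cdkn1c from 3.93 and 3.82 FPKM to 7.75 and 7.71 FPKM. Igf2r fell from 7.8 and 7.84 FPKM to 4.44 and 4.61 FPKM (log2 change -0.68), and Peg3 from 4.25 and 4.37 FPKM to 2.37 and 2.44 FPKM (log2 change -0.64). Both groups were apart for each of these genes, as for 69.8% of all tested genes.

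Markers of other early lineages rose in part. Of 14 trophoblast markers, 10 were tested, and 7 rose and 1 fell, with a median of 0.39 (0.36 length-corrected). The defining factors Cdx2, Elf5 and Gata3 did not pass the filter. Esx1 rose from 6.73 and 7.08 FPKM to 14.39 and 15.77 FPKM (log2 change 1.02, SE 0.09), Hand1 from 4.79 and 5.04 FPKM to 10.92 and 10.77 FPKM (1.00, SE 0.09) and the keratin gene Krt18 from 1.77 and 2.41 FPKM to 4.66 and 4.75 FPKM (0.89, SE 0.08). The summed FPKM of the trophoblast list was 54.53 and 54.9 in KO and 73.25 and 74.72 in the fusion line. Of 14 tested markers of the 2-cell-like state, 9 rose and 1 fell, with a median of 0.39, and 7 were higher and 1 lower after length correction. Zscan4c rose from 21.04 and 21.22 FPKM to 33.05 and 31.55 FPKM and Zscan4d from 12.72 and 12.76 FPKM to 19.56 and 18.77 FPKM, while Zscan4e fell from 11.13 and 11.91 FPKM to 7.04 and 7.52 FPKM. The Zscan4 genes are near-identical copies, so the split of reads among them is uncertain.

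Of 18 extraembryonic endoderm markers, 3 rose, 2 fell and 13 were not called as deposited, whereas 8 were higher and 1 lower after length correction (median 0.06 and 0.21). Over all tested genes the shares were 19.3% higher and 29.8% lower as deposited, and 27.0% and 19.8% after the correction. Gata6 was 1.09 and 1.03 FPKM in KO and 1.19 and 1.38 FPKM in the fusion line, against 5.93 and 5.79 FPKM in WT. It was called higher only after length correction (log2 change 0.30). Dab2, an endocytic adaptor of this lineage, was among the 3 that rose, from 1.63 and 1.44 FPKM to 3.72 and 3.41 FPKM (log2 change 0.85, SE 0.09). Of 9 eye field genes, 3 fell and 6 were not called, and 1 was lower after length correction. Rax, the gene that names the reporter line, was 0.73 and 0.81 FPKM in KO and 0.3 and 0.31 FPKM in the fusion line (log2 change -0.44, SE 0.06).

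Mesenchymal and smooth muscle genes rose, and adhesion genes were divided. Of 18 mesenchymal genes, 12 rose and 1 fell, with a median of 0.40 (0.45 length-corrected). Lgals1, which encodes galectin-1, rose from 117.96 and 128.82 FPKM to 271.79 and 270.12 FPKM (log2 change 1.13, SE 0.06, adjusted p = 7.77e-12). Tagln, an actin-binding protein of smooth muscle, rose from 1.83 and 2.0 FPKM to 5.16 and 5.05 FPKM (log2 change 1.07, SE 0.17). Zeb1, a repressor of epithelial genes, was the member that fell, from 4.15 and 3.1 FPKM to 2.08 and 1.98 FPKM. Acta2 and Tagln are also feeder markers, and the summed FPKM of that list, mostly Fn1, was 133.16 and 137.53 in KO and 115.67 and 118.99 in the fusion line. Of its 11 tested members, 3 rose and 1 fell as deposited (median 0.11), and 7 were higher with no member lower after length correction (median 0.325). The part of contaminating fibroblasts was not tested. Of 15 epithelial adhesion and keratin genes, 8 rose and 4 fell, and 8 were higher and 3 lower after length correction. E-cadherin (Cdh1) was among those that fell, from 81.93 and 80.61 FPKM to 53.23 and 55.06 FPKM (log2 change -0.58, SE 0.04), and the claudin Cldn4 rose from 10.83 and 9.46 FPKM to 15.46 and 15.85 FPKM.

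Of 13 genes of LIF signalling, which sustains mouse stem cells through STAT3, 5 rose and 5 fell, and 5 were higher and 4 lower after length correction. Over all tested genes the shares were 19.3% higher and 29.8% lower as deposited, and 27.0% and 19.8% after the correction. The list's median change was 0.04 as deposited and 0.09 after length correction, so the list as a whole did not fall. Members named next are mostly those that fell, while Gbx2 was among those that rose. The receptor gene Lifr was 26.04 and 12.39 FPKM in KO and 8.82 and 6.84 FPKM in the fusion line (log2 change -1.12, SE 0.30, adjusted p = 0.00465), with wide spread in KO. Without KO replicate 1 the change was -0.61 and not called (limma, adjusted p = 0.139), nor was it called in the fit on the compared groups alone (limma, adjusted p = 0.129). Its co-receptor Il6st fell from 12.32 and 12.5 FPKM to 6.35 and 5.92 FPKM (log2 change -0.91, SE 0.05, length-corrected -0.63). The kinase gene Jak1 fell from 6.02 and 6.24 FPKM to 3.25 and 3.55 FPKM, and Stat3 from 22.66 and 21.75 FPKM to 15.28 and 15.13 FPKM. Socs3, a direct STAT3 target and feedback inhibitor, was 95.69 and 93.43 FPKM in KO and 98.32 and 96.03 FPKM in the fusion line (log2 change 0.04, SE 0.08, adjusted p = 0.734).

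Fibroblast growth factor signalling genes mostly fell, in contrast to Egr1 and Fos. Of 14 FGF and ERK feedback genes, 9 fell and 2 rose, with a median of -0.28, which the length correction brought to -0.11 with 6 lower and 3 higher. Fgf4, the main ligand of stem cells, fell from 39.45 and 40.81 FPKM to 25.18 and 26.35 FPKM (log2 change -0.62, SE 0.05). The feedback phosphatase gene Dusp6 fell from 32.91 and 31.43 FPKM to 25.21 and 24.69 FPKM (log2 change -0.35, SE 0.05), and Spry4, an inhibitor of receptor kinases, by 0.38 on the log2 scale. Dusp4 rose from 4.37 and 4.45 FPKM to 6.19 and 5.85 FPKM. Nodal signalling genes diverged as well: the antagonist Lefty1 rose from 68.57 and 63.24 FPKM to 103.09 and 105.36 FPKM, while its near relative Lefty2 fell from 62.83 and 58.82 FPKM to 33.2 and 33.71 FPKM. Of 16 tested Wnt pathway genes, 6 rose and 2 fell, and 8 were higher with no member lower after length correction. The receptor gene Fzd2 rose from 3.99 and 4.36 FPKM to 7.78 and 8.63 FPKM. The common target Axin2 was not called as deposited, at 3.12 and 2.98 FPKM in KO and 3.35 and 3.09 FPKM in the fusion line. After length correction Axin2 was called higher (log2 change 0.24).

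Ribosomal protein genes, which are short and abundant, rose almost as a body. Of 84, 78 rose and 1, Rpl7l1, fell, with a median of 0.35, and 78 were still higher after length correction with a median of 0.28. Their median transcript length was 1.11 kb, and the correction left a median of 0.089 over all coding genes of 1 to 1.5 kb. Rpl7l1 was not called without KO replicate 2 (log2 change -0.11) or after median-of-ratios rescaling (-0.06). The summed FPKM of the ribosomal protein genes was 180739.53 and 185884.41 in KO and 233929.26 and 233404.03 in the fusion line. FPKM values are relative to the total of the library. Rps10 rose from 3483.73 and 3662.82 FPKM to 5149.13 and 5145.03 FPKM (log2 change 0.53, SE 0.03). Of 20 nuclear-encoded subunits of the respiratory chain, 15 rose and 4 fell, with a median of 0.22, and 12 were higher and 3 lower after length correction. Ndufa2 of complex I rose from 231.64 and 232.34 FPKM to 322.01 and 328.15 FPKM, whereas Sdha, the flavoprotein of complex II, fell from 142.59 and 141.66 FPKM to 73.9 and 71.95 FPKM (log2 change -0.95, SE 0.06). Of 13 mitochondrially encoded genes, 11 rose and 1 fell, and 6 were higher after length correction. Their corrected median was 0.204, beside 0.177 over all coding genes under 1 kb.

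Genes of the endoplasmic reticulum stress response fell. Of 14 unfolded protein response genes, 10 fell and 4 were not called, with a median of -0.31 that became -0.27 after length correction, again with 10 lower. After median-of-ratios rescaling, 9 were lower and 2 higher. Hyou1, an endoplasmic reticulum chaperone, fell from 122.9 and 118.9 FPKM to 76.03 and 76.83 FPKM (log2 change -0.65, SE 0.02, adjusted p = 9.38e-14). Hsp90b1, a chaperone of the same compartment, fell from 444.68 and 449.43 FPKM to 321.71 and 318.48 FPKM, and Hspa5 (BiP) from 417.68 and 416.73 FPKM to 329.84 and 330.47 FPKM. The groups were apart for all 3 genes, as for 69.8% of all tested genes.

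Genes of transcript decay and of lipid synthesis gave less uniform results. Of 19 genes of naive exit and mRNA decay, 14 fell and 2 rose, with a median of -0.27 that the length correction brought to -0.09 with 9 lower and 5 higher. Smg1, a kinase of nonsense-mediated decay, fell from 8.3 and 8.81 FPKM to 4.05 and 4.5 FPKM (log2 change -0.86, SE 0.08). Of 22 cholesterol and fatty acid synthesis genes, 7 rose and 10 fell, and the median of -0.07 turned to 0.04 after median-of-ratios rescaling and to 0.11 after length correction. Fdps, an enzyme of the cholesterol pathway, rose from 161.86 and 163.77 FPKM to 221.79 and 232.63 FPKM.

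Of 13 cyclins and inhibitors of cyclin-dependent kinases, 4 rose and 7 fell, the same counts as after length correction. For this and the next lists, the shares over all tested genes were 19.3% higher and 29.8% lower. After length correction they were 27.0% and 19.8%. Of 16 apoptosis genes, 5 rose and 7 fell, and 7 were higher and 5 lower after length correction. Cdkn2a, a tumour suppressor locus that restrains the cell cycle, rose from 9.37 and 10.17 FPKM to 21.16 and 21.91 FPKM (log2 change 1.07, SE 0.14), and the cyclin gene Ccnd2 fell from 2.34 and 2.18 FPKM to 0.98 and 1.1 FPKM (log2 change -0.68, SE 0.08). Of 18 p53 targets, 5 rose and 6 fell as deposited, 9 were higher and 4 lower after length correction, and 10 were higher and 4 lower after median-of-ratios rescaling. Bbc3 (PUMA), which promotes apoptosis, rose from 18.38 and 15.3 FPKM to 30.3 and 36.0 FPKM (log2 change 0.94, SE 0.09), and Mdm2, which degrades p53, fell from 49.69 and 47.67 FPKM to 37.13 and 38.18 FPKM. Of 18 tested interferon response genes, 3 rose and 8 fell, and 4 were higher and 5 lower after length correction. Bst2 (tetherin) rose from 51.68 and 44.16 FPKM to 89.43 and 96.08 FPKM.

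**Figure D4:**
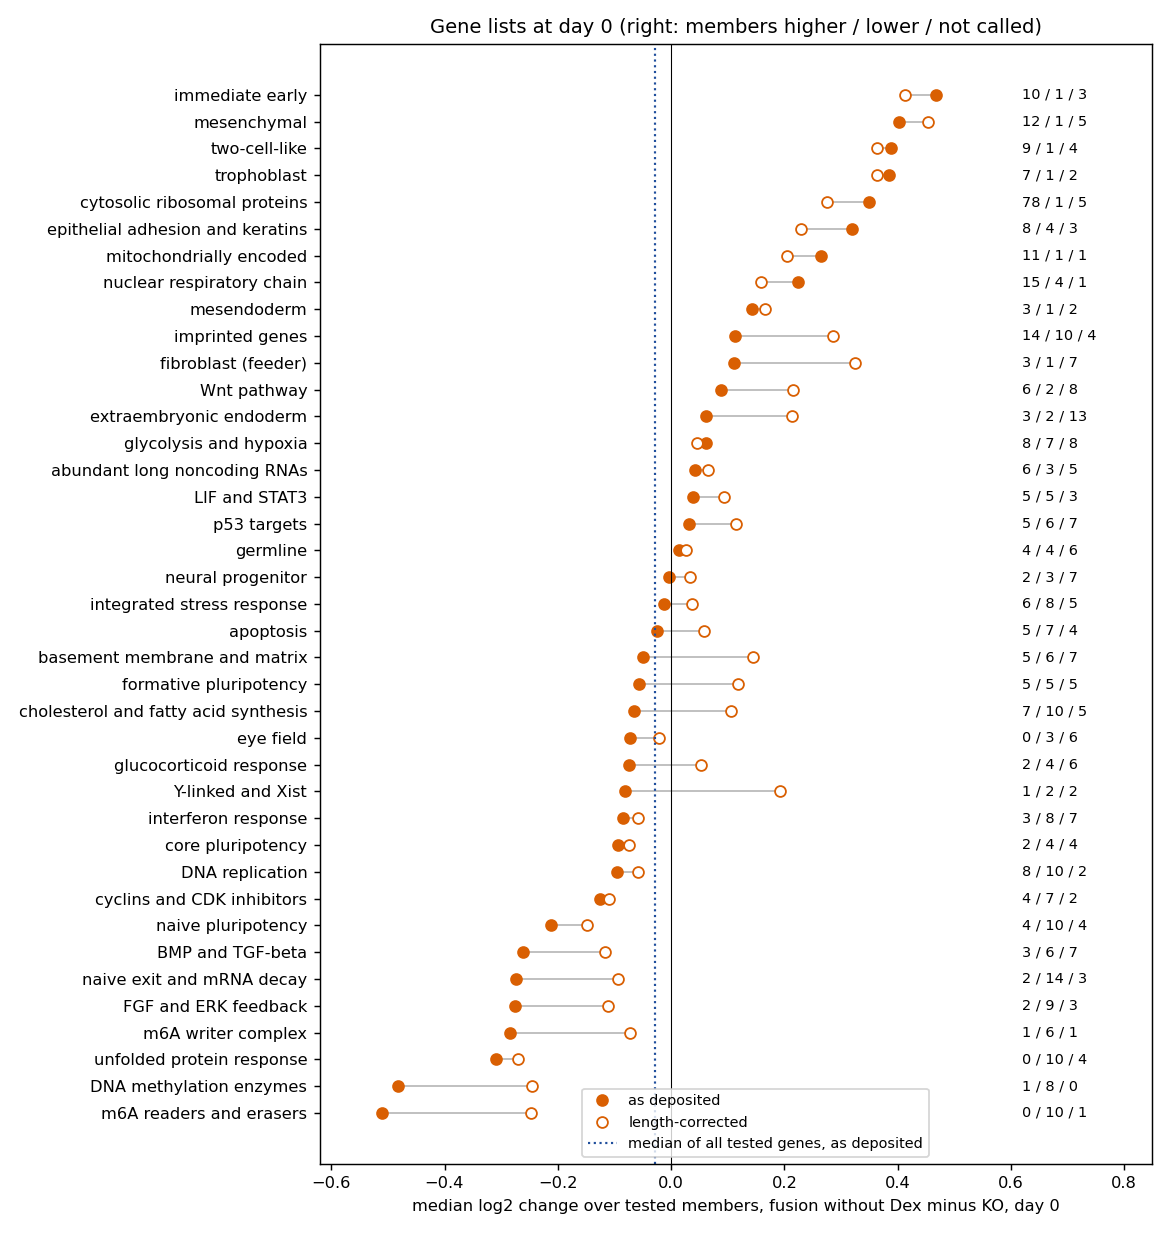
Median log2 change over the tested members of 39 gene lists at day 0 (fusion without Dex minus KO), as deposited (filled) and after length correction (open). Digits on the right give the members called higher, lower and not called. As deposited the immediate early list lies highest, at 0.47, and the m6A readers and erasers lowest, at -0.51; after length correction the mesenchymal list lies highest, at 0.45, and the unfolded protein response lowest, at -0.27.

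The same lines were compared at days 2, 4 and 6, in separate libraries. At day 2, 37.0% of tested genes were called, at day 4 26.7% and at day 6 49.0%. The higher and lower calls were 14.8% and 22.2% of tested genes at day 2, 9.66% and 17.0% at day 4, and 21.1% and 27.9% at day 6. Of the 3142 genes higher at day 0, 149 were also higher at day 2 and 1468 were lower. At day 4, 726 of them were also higher and 356 lower, and at day 6, 1133 were also higher and 851 lower. Of the 4843 genes lower at day 0, 449 were also lower at day 2 and 1878 were higher. At days 4 and 6 the counts were 1407 lower against 303 higher and 1665 lower against 925 higher. Across genes, the change at day 0 had a Pearson correlation of -0.384 with that at day 2, 0.165 with day 4 and 0.122 with day 6. Transcript length moved with these differences too: its rho with the change was 0.255, -0.231 and -0.139 at days 2, 4 and 6. Its part in the turn at day 2 was not tested.

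A test of the difference itself, the mean change at days 2, 4 and 6 minus the change at day 0, called 8359 genes (51.4%). Of these, 4284 were higher later (26.3%) and 4075 lower (25.0%). Egr1 and Gadd45g were among the second kind. At day 2 Egr1 was 15.42 and 14.79 FPKM in KO and 14.7 and 14.51 FPKM in the fusion line, and at day 6 the fusion line lay below KO, at 2.16 and 1.87 FPKM against 5.71 and 5.72 FPKM. Gadd45g was 42.85 and 42.37 FPKM in KO and 39.51 and 42.37 FPKM in the fusion line at day 2, and Fos was lower in the fusion line at each later day. Casp8ap2, low in the fusion line at day 0, was 8.97 and 8.67 FPKM in KO and 11.68 and 16.69 FPKM in the fusion line at day 2.

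Mt1 was not called at day 2, at 925.41 and 949.47 FPKM in KO and 952.1 and 945.65 FPKM in the fusion line, and was higher in the fusion line again at day 4, at 368.23 and 382.52 FPKM against 239.4 and 244.44 FPKM in KO. At day 6 the values were 135.54 and 130.58 FPKM against 58.89 and 60.91 FPKM. Tet1 was 15.48 and 13.9 FPKM in KO and 17.02 and 19.12 FPKM in the fusion line at day 2. Dnmt3l stayed higher in the fusion line at every day, at 77.37 and 76.33 FPKM against 123.6 and 122.69 FPKM at day 2. Over all 4 days, 53 genes were called higher each time and 198 lower each time. Mettl3 and the imprinted gene Nnat were among the 53, with Mettl3 log2 changes of 0.46, 0.49 and 0.36 at days 2, 4 and 6, and Nnat changes of 0.33, 0.41 and 1.12.

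**Figure D5:**
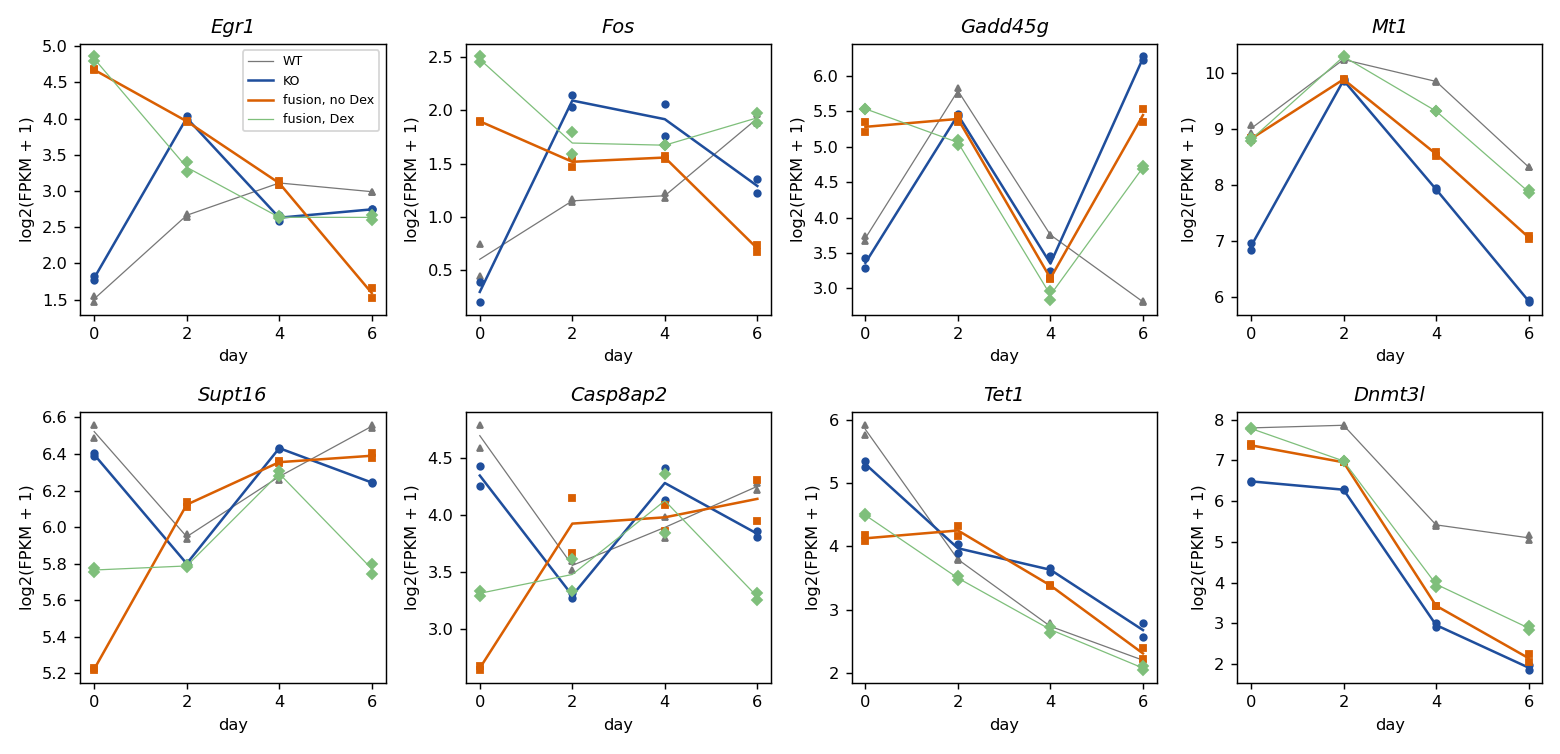
Levels of 8 genes as log2(FPKM + 1) by day in the 4 lines, one symbol per library and lines through the means of 2 libraries; the vertical scales differ and do not start at 0. Egr1 and Gadd45g are high in the fusion line at day 0 and near KO at day 2, while Dnmt3l lies above KO at every day.

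The KO group also stood against WT, and the fusion without Dex against the fusion with Dex, at day 0. These comparisons share libraries with the one described, so their values are only set side by side. For Mt2 the change from WT to KO was -2.43 on the log2 scale and the Dex level differed from that without Dex by -0.04. For Egr1 the KO level was above WT by 0.29 and the Dex level above that without Dex by 0.15. For Dnmt3l the values were -1.31 and 0.41, and for Tet1 -0.55 and 0.37. For H19 they were -1.16 and 0.49, and for Zfp978 -0.75 and 1.84. In each of the last 4 genes the fusion line with Dex lay above that without it, while its position against KO differed: it was above KO for Dnmt3l and H19 and below KO for Tet1 and Zfp978.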

How the data were processed

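Polyadenylated RNA of 32 libraries (16 groups of 2) was sequenced by the authors as paired-end reads, per the labels. The values are FPKM deposited by the authors in a single table. The submitters' processing notes name STAR, Cuffdiff and the build mm10, without versions. The annotation and the strand setting are not given in the sources used here. Gene positions and transcript lengths were taken from GENCODE M21, matched by Ensembl ID for 99.5% of rows. Depth was estimated from the steps of low FPKM values: 91.5% to 93.2% of them lay within 0.2 of a whole fragment in the 4 compared libraries (28.85 to 55.3 M fragments over all 32), with transcript lengths shortened by 290 to 300 bases. Limits from depth cover counting error only. The largest error of the depth estimate was 0.14% when tested on simulated data (14131 genes).

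Tests used R 4.3.3 and limma 3.58.1 (lmFit, contrasts.fit, eBayes with trend) on log2(FPKM + 1), which understates changes of low genes. A single model of all 32 libraries estimated a mean for each of 16 groups, which left 16 degrees of freedom for the spread. A gene was tested with at least 1 FPKM in at least 2 libraries and called at a two-sided Benjamini-Hochberg adjusted p under 0.05 over all tested genes. On simulated data of this comparison with 200 of 16276 genes changed, 73.5% of changes of 0.5 and 91.4% of changes of 1 (log2) were recovered, and 5.5% of calls were false. The simulation had far fewer changed genes than were called here and no trend on transcript length between the groups. Its false share therefore does not carry over to the real calls. Alternatives were a pseudocount of 0.1, other filters (none, or a mean of 5 FPKM), median-of-ratios rescaling, fewer groups in the fit, the replicate number as a block, a minimum change of 1, leaving out each library, and a length correction (per-library loess on log2 longest transcript length, span 0.3, 99.8% of tested genes with a length), which was chosen after seeing the data.

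Named genes were Mettl3, Nr3c1, the reporters, the 15 largest rises and falls among called genes whose groups did not overlap, with a mean of at least 2 FPKM in the higher group and an established symbol, plus the 3 largest each way among other symbols, the 5 largest each way for the later days, and members of the 39 lists. The choice for the later days also required groups that did not overlap at day 0. The members and lists were chosen with earlier results of these data known.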

Additional observations from a re-analysis of the deposited data

Results flagged for a closer look

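Changes at the later days departed from day 0, by a test of the difference itself, in 8359 genes. The named genes with the largest departures are given as the mean change at days 2, 4 and 6 minus the change at day 0, on the log2(FPKM + 1) scale. They were chosen among genes whose day 0 libraries did not overlap between groups, so a difference at day 0 was part of the selection. Zfp978 had a value of 3.84, Adnp 2.53, the falling Septin2 entry 2.23, Platr16 2.04 and Casp8ap2 1.88, so the fusion line was lower at day 0 and not, or less, lower later. Exosc6 had -6.48, Rpgrip1 -4.54, Bc1 -3.99, Egr1 -3.12 and Gadd45g -2.27, so the fusion line was higher at day 0 and not, or less, higher later. Exosc6 was listed at 0 only in KO and WT at day 0 among the groups compared here: at day 2 it was 106.79 and 100.59 FPKM in KO and 60.7 and 58.7 FPKM in the fusion line.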

How the results depend on the processing

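The count of genes called at day 0 stayed between 5806 and 8367 under the alternative fits, against 7985, apart from the requirement of a change of at least 1, which left 221. Leaving out each of the 4 libraries gave 6970 to 7054 calls. The count for the later days was 6113 to 8737 (7348 to 7515 with a library left out), against 8359, and 387 with a change of at least 1. Replicate numbers did not pair the samples (the duplicate differences of KO and fusion at day 0 had a correlation of 0.0093 across genes), and the fit with the replicate block called 7968 genes at day 0 and 8322 for the later days. The share of day 0 calls that were higher moved from 39.3% to 54.0% with median-of-ratios rescaling and to 57.6% with the length correction, and the cause was not tested. Of 135 genes named, 127 were called at day 0. Changes of sign touched genes that were not called: Nanog became 0.0004 after rescaling, Klf4 ranged from -0.0122 (without KO replicate 1) to 0.0138 with a library left out (-0.0065 without fusion replicate 1), and the second Septin2 entry from -0.0071 (without KO replicate 1) to 0.1172. Of 39 list medians, 13 changed sign under some alternative, among them core and formative pluripotency, glucocorticoid response and cholesterol synthesis. Fits on the compared groups alone called 3941 genes at day 2 against 6027, and 2284 at day 4 against 4339. With 2 libraries per group and 33.8 to 37.45 M fragments, genes near 0.05 FPKM cannot be told from 0.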

Other observations

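Several genes outside the naming rule, chosen after their values were seen, also differed at day 0 (limma, adjusted p under 0.05). Apoe, a lipid carrier protein, was 863.74 and 847.67 FPKM in KO and 1509.26 and 1550.17 FPKM in the fusion line (log2 change 0.84, SE 0.08). Fabp3, a fatty acid binding protein, was 478.69 and 481.12 FPKM against 977.66 and 960.43 FPKM (log2 change 1.01, SE 0.04). Mt3, a metallothionein known from the brain, was 9.55 and 9.35 FPKM against 19.28 and 18.67 FPKM, in the same direction as Mt1 and Mt2.

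Of 18 basement membrane and matrix genes, 5 rose, 6 fell and 7 were not called as deposited, beside 19.3% higher and 29.8% lower over all tested genes. After length correction 8 were higher and 3 lower, beside 27.0% and 19.8% of all tested genes, and the median turned from -0.05 to 0.145. Hspg2, which encodes perlecan, rose from 62.89 and 63.02 FPKM to 107.5 and 105.03 FPKM, while Nid1 (nidogen) fell from 6.69 and 6.53 FPKM to 2.88 and 3.07 FPKM. The host transcript of an oncogenic microRNA cluster, Mir17hg, fell from 14.06 and 13.62 FPKM to 6.98 and 6.39 FPKM. Among germline genes Rhox9 rose from 10.78 and 10.4 FPKM to 19.88 and 17.93 FPKM, and Dazl fell from 6.15 and 5.24 FPKM to 3.12 and 3.56 FPKM. Ssh1, a cofilin phosphatase, was called lower at all 4 days, with log2 changes of -0.78, -0.67, -0.84 and -1.08 at days 0, 2, 4 and 6.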
